A study of Mus musculus with 6 samples.

Results

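Neutrophils store their antimicrobial proteins in granules that are filled one kind after another while the cell matures, and 10 genes of such proteins are described here in immune cells of the mouse brain before and during autoimmune inflammation. They were chosen by symbol from the 28692 genes counted, and all 10 symbols were found. They are 4 genes of primary granules (Elane, Mpo, Prtn3 and Ctsg), 4 of secondary granules (Ltf, Camp, Ngp and Lcn2) and 2 of tertiary granules (Mmp8 and Mmp9).

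Primary, or azurophil, granules form in promyelocytes, the dividing precursors of the bone marrow. They carry the serine proteases neutrophil elastase (Elane), proteinase 3 (Prtn3) and cathepsin G (Ctsg), and myeloperoxidase (Mpo), which makes hypochlorous acid. Secondary granules form later, in myelocytes and metamyelocytes, and hold lactoferrin (Ltf), cathelicidin (Camp), neutrophilic granule protein (Ngp) and lipocalin 2 (Lcn2). Tertiary granules form last and carry metalloproteinases such as gelatinase B (Mmp9). Neutrophil collagenase (Mmp8) is often placed in secondary granules, and is grouped here with Mmp9.

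The cells came from C57BL/6 mice lacking the microRNA miR-155 (KO) and from wild-type C57BL/6 mice (WT). Both genotypes were sampled as unimmunised mice, called day 0, and on days 13 and 21 after induction of EAE, experimental autoimmune encephalomyelitis. In EAE, immunisation provokes an autoimmune attack on brain and spinal cord. Each of the 6 groups pooled 5 mice, per the study's design, into 1 droplet library, in which 3′ transcript ends were counted by UMIs (unique molecular identifiers). Live CD45+ DAPI-negative cells were sorted after a Percoll gradient, the labelled tissue being brain and the protocol naming spinal cord too. The labels name no cell type or promoter for the deletion. Both libraries of a day share a title prefix, and a batch that this prefix may mark cannot be told apart from the day.

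Of 20030 barcodes, 19991 cells were kept, and libraries held 6321841 to 24243660 UMIs with medians of 3019 to 4368.5 per barcode. Between 5 and 32 barcodes were shared by any pair of libraries, at most 0.858% of the smaller one. Every group held 1 library, so differences between genotypes on 1 day stand without replicates and their intervals cover counting error only. The tests used days as replicates of genotype, or genotypes as replicates of a day.

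Cells were clustered without the 10 genes, and clusters were named from markers that include none of them. A cluster is called here by its leading gene over all genes. The Mpo-led cluster (388 cells) was led by Mpo, Ctsg, Prtn3 and genes of the cell cycle such as Birc5 and Ccna2. It carried progenitor and monocyte markers side by side and was given no cell type name. The Fcnb-led cluster (544 cells) and the Ltf-led cluster (978 cells) were immature neutrophil-like. Igha, an immunoglobulin gene, stood among the leading genes of the Fcnb-led cluster. The Retnlg-led (1148 cells) and Cxcl2-led (218 cells) clusters were mature neutrophil-like. Median UMIs per cell were 10593.5 and 10004.5 in the Mpo-led and Fcnb-led clusters and 3806.5, 2727.5 and 4078.5 in the Ltf-led, Retnlg-led and Cxcl2-led ones. Neutrophil-like cells made up 4.89%, 10.1% and 16.3% of the KO libraries of days 0, 13 and 21, against 11.5%, 14.6% and 19.5% of the WT libraries.

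The promoters of the granule genes differed by group in the short sequences they hold. The letters GAGGAAG, which PU.1 can bind, and TTGCNNAA, which C/EBP proteins can bind, were searched on both strands in the 250 bases before each RefSeq start. GAGGAAG was found in 4 of 4 primary, 1 of 4 secondary and 1 of 1 tertiary promoters, and in 10.6% of 32851 promoters. TTGCNNAA was found in 0 of 4 primary, 3 of 4 secondary and 1 of 1 tertiary promoters, and in 9.56% of all. Mmp9 had no entry, and a match describes letters and not a bound site. For Prtn3 and Lcn2, none of the bases searched lay before the annotated gene start. Prtn3 held GAGGAAG, Lcn2 held both sequences and was the secondary gene with GAGGAAG, and Camp held neither. The stretches before the annotated gene start follow for the members with a match in them. They are from RefSeq on build GRCm38.p6, on the gene's strand, with matches in capitals.
Elane, chr10:79886062-79886246, plus strand: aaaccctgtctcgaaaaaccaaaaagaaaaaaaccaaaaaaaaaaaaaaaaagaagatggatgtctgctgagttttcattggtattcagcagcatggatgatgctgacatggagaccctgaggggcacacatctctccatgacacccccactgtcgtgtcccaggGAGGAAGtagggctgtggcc
Mpo, chr11:87793534-87793580, plus strand: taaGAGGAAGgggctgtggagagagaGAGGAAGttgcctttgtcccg
Ctsg, chr14:56102575-56102824, minus strand: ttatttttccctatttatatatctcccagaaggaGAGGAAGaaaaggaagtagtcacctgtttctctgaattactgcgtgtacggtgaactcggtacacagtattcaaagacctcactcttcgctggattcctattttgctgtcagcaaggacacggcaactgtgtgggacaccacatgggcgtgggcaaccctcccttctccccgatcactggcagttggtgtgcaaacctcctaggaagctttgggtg
Ltf, chr9:111019042-111019270, plus strand: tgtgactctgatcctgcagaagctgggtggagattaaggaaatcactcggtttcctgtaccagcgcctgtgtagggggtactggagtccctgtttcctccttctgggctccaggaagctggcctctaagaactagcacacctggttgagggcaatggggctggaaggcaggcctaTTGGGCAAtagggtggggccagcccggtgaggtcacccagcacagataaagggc
Ngp, chr9:110419558-110419746, plus strand: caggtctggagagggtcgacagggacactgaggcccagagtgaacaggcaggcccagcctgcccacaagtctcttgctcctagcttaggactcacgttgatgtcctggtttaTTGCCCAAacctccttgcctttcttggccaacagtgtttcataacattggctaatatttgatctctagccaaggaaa
Mmp8, chr9:7558179-7558428, plus strand: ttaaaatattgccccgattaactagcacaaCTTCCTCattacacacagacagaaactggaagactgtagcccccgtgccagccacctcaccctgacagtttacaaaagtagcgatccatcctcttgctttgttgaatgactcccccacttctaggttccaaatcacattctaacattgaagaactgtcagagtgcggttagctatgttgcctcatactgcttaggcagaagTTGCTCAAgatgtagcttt

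Elane (chr10:79886247-79888215) and Prtn3 (chr10:79874476-79883174) are neighbours on the plus strand, with 3072 bases between them. The Prtn3 locus overlaps Plppr3 and the Mpo locus (chr11:87793581-87804413) overlaps the antisense gene Gm11505, both on the minus strand. How the counting treated strand is not given in the sources used here, so reads could be shared in either pair. The microRNA missing in KO mice is shown with its seed, bases 2 to 8, in capitals, from RefSeq.
mmu-miR-155-5p: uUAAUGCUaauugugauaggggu
The seed's target letters AGCATTA were in the annotated 3′ UTR of 0 of the 10 genes, and of 7.99% of 21685 genes.

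The 3 groups of genes were highest in different clusters. Taken as Mpo-led, Fcnb-led, Ltf-led and Retnlg-led, these clusters followed the order in which the granules form. This order was not derived without the granule genes. The markers set immature clusters apart from mature ones, but gave Fcnb-led and Ltf-led cells the same name and Mpo-led cells none. Over all libraries, the levels of Elane, in UMIs of the gene per 1000000 UMIs of the cluster (CPM), were 1515 in Mpo-led, 3310 in Fcnb-led, 7.78 in Ltf-led, 7.01 in Retnlg-led and 8.10 in Cxcl2-led cells. Those of Camp were 196, 33052, 45875, 9728 and 8055 CPM in the same order. Those of Mmp9 were 4.04, 62.9, 647, 1367 and 373 CPM. The primary gene was high in the first pair of clusters and low in the others, the secondary gene ran over all neutrophil-like clusters with its highest level in Ltf-led cells, and the tertiary gene was highest in Retnlg-led cells. These levels describe clusters, which were made from the cells' own genes, so no test was made between them.

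**Figure D1:**
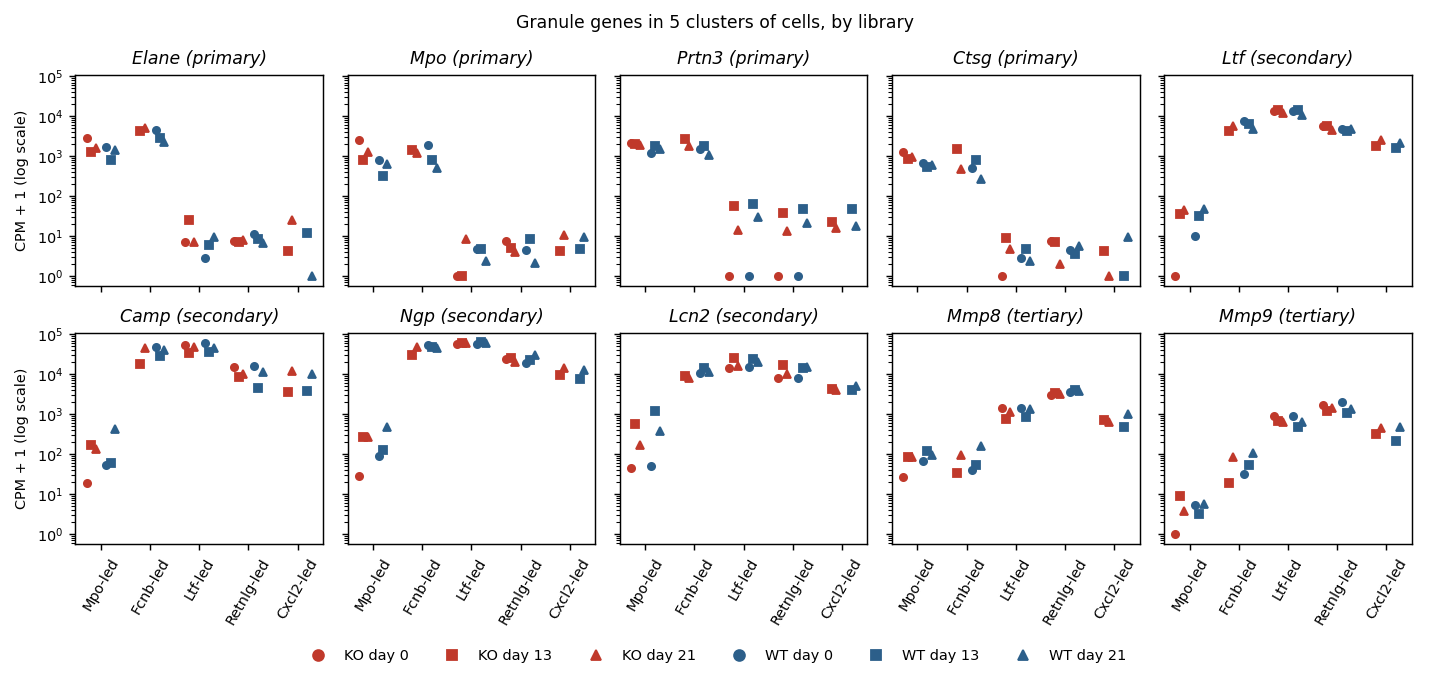
Levels of the 10 granule genes (CPM + 1, log scale) in 5 clusters, 1 point per library with 15 or more cells in the cluster, KO in red left of WT in blue and days by shape. Primary genes were high in Mpo-led and Fcnb-led cells, secondary genes peaked in Ltf-led cells and tertiary genes in Retnlg-led cells in each library.

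For the secondary and tertiary genes the highest cluster was the same in each library. Counting clusters with 15 or more cells, Ltf, Camp, Ngp and Lcn2 were each highest in Ltf-led cells in 6 of 6 libraries. For Ltf this was close to given, since that cluster was picked because Ltf led its genes. Mmp8 and Mmp9 were highest in Retnlg-led cells in 6 of 6. Primary genes were split between Fcnb-led and Mpo-led cells. Elane was highest in Fcnb-led cells in 5 libraries and in Mpo-led cells in 1, and Mpo and Prtn3 in 3 and 3. Ctsg was highest in Mpo-led cells in 4 and in Fcnb-led cells in 2. The KO library of day 0, with 3 Fcnb-led cells, had too few to compare that cluster. It is counted under Mpo-led for all 4 primary genes, and is the 1 such library for Elane. The immature class as a whole had higher CPM than the mature class in 48 of 60 pairs of gene and library. The other 12 pairs were Mmp8 and Mmp9 in every library, with mature cells 2.43-fold to 12.1-fold higher for Mmp8 and 2.14-fold to 5.35-fold higher for Mmp9.

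Genes of 1 group differed in how far the immature and mature classes lay apart. Lcn2 differed least, with immature over mature ratios of 1.07 to 1.75 over the libraries. Ltf had ratios of 1.53 to 2.49 and Ngp of 1.87 to 2.92. Camp had ratios of 3.20 to 6.84, above those of the other 3 secondary genes in range. The primary genes had higher ratios, over 50 or fewer UMIs per library in the mature class. The lowest over the libraries was 149 for Elane, 84.3 for Mpo, 26.6 for Prtn3 and 12.4 for Ctsg.

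Most transcripts of a gene came from few cells. Fcnb-led cells, 2.72% of all cells, held 72.1% of the Elane UMIs, 53.2% of Mpo, 50.6% of Prtn3 and 47.7% of Ctsg. Mpo-led cells, 1.94% of all cells, held 24.9%, 41.2%, 37.0% and 38.3% of the same genes. Retnlg-led cells held 55.1% of the Mmp8 UMIs, and monocyte/macrophage-like cells held another 11.8%.

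Primary and secondary transcripts were found in the same cells mainly in the Fcnb-led cluster. With 5 or more primary and 50 or more secondary UMIs taken as carrying both, 211 of 544 Fcnb-led cells (38.8%) did so, against 8 of 388 Mpo-led, 5 of 978 Ltf-led, 1 of 1148 Retnlg-led and 0 of 5457 lymphocyte-like cells. By library the Fcnb-led share on day 13 was 60.5% in KO cells, against 45.7% in WT cells. On day 21 it was 37.7% in KO cells, against 28.3% in WT cells. Secondary transcripts with 5 or more tertiary UMIs were found together in 58.5% of Ltf-led and 61.9% of Retnlg-led cells, and in 18.3% of Cxcl2-led cells. These thresholds are not adjusted for depth, which was about as high in Fcnb-led as in Mpo-led cells and lower in the others.

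In the Mpo-led cluster, Mpo, Ctsg and Elane were higher and Lcn2 was lower in KO than in WT cells over the days. Mpo was measured at 2504, 807 and 1279 CPM in the KO libraries of days 0, 13 and 21, against 823, 320 and 649 CPM in the WT libraries. The KO level was above the WT level on each day, by 3.04-fold, 2.52-fold and 1.97-fold. Ctsg was measured at 1306, 843 and 952 CPM in KO, against 658, 538 and 595 CPM in WT. All 3 KO values of Ctsg lay above all 3 WT values. Elane was measured at 2837, 1249 and 1589 CPM in KO, against 1724, 810 and 1393 CPM in WT. For Elane the groups overlapped across days, and KO was higher within each day by 1.65-fold, 1.54-fold and 1.14-fold. Prtn3 was measured at 2105, 1988 and 1856 CPM in KO, against 1184, 1756 and 1543 CPM in WT. Its KO values also lay above all 3 WT values, by 1.78-fold, 1.13-fold and 1.20-fold within days. Counting all 10 members, 4, 5 and 2 were 1.5-fold or more higher in KO on days 0, 13 and 21, where 19.1%, 14.6% and 9.83% of all genes at 10 CPM or more were. Lower by that size were 3, 1 and 3 members, against 18.0%, 14.1% and 9.98% of all genes.

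The test of genotype in these cells was added after the values had been seen. Its SE and p-values draw on the spread of all genes as well as of the gene itself. In edgeR's quasi-likelihood test with day as a factor and Benjamini-Hochberg adjustment over 6246 genes, 3 of the 9 members tested were called higher, against 0.496% of all genes, and 1 lower, against 0.208%. Mpo had the lowest p of all genes, with a log2 fold change of 1.31 ± 0.11 (SE) and an adjusted p of 7.2e-07 in edgeR. Ctsg had 0.78 ± 0.10 (adjusted p = 3.1e-04) and Elane 0.51 ± 0.10 (adjusted p = 0.0112) on the log2 scale in the same edgeR test. Prtn3 was not called, at 0.43 ± 0.10 with an adjusted p of 0.0588 in edgeR. Lcn2 fell, at -1.04 ± 0.14 with an adjusted p of 3.7e-04 in edgeR. Its level was 42.9, 554 and 170 CPM in KO, against 49.1, 1207 and 388 CPM in WT, with the KO value lower on each day, by ratios of 0.874, 0.459 and 0.439.

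These calls changed with the libraries and cells used. Without the WT library of day 13 no member was called, and Mpo then had a log2 fold change of 1.30 with an adjusted p of 0.109 in edgeR. Leaving out the KO library of day 13 removes the same pair, and then Mpo, Ctsg, Camp, Ngp and Lcn2 were called. These fits tested 7483 and 6081 genes, and the cause of their difference was not tested. With cells classed by their own marker scores in place of clusters no member was called, and Mpo had 0.87 (adjusted p = 0.151 in edgeR). Without the WT library of day 0 the calls that stayed were Mpo and Lcn2, since Ctsg then had an adjusted p of 0.0812 in edgeR. Without the KO library of day 0, Ctsg stayed called as well. Elane lost its call without either library of day 0 or of day 13, and under DESeq2 (adjusted p = 0.0530).

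Markers of other stages moved with genotype in the same cells. The summed CPM of 11 immature neutrophil markers was 1036, 3040 and 1568 in KO Mpo-led cells of days 0, 13 and 21, against 2215, 4890 and 3553 in WT cells. That of 13 mature neutrophil markers, S100a8 and S100a9 among them, was 1142, 6879 and 4923 in KO, against 2623, 11202 and 5814 in WT. Both sums were lower in KO on each day. The 13 progenitor markers summed to 1336, 1677 and 1239 CPM in KO, against 1296, 1421 and 1204 CPM in WT, and the 9 monocyte/macrophage markers to 7738, 10048 and 9720 CPM in KO, against 8228, 10296 and 9386 CPM in WT. At most 1 of the 13 progenitor markers was at 0 in any library. Median UMIs per cell were 15940.5, 14559 and 10630.5 in KO, against 11061, 14665 and 8355 in WT. The part of these shifts in the granule gene differences was not tested. In sums over a cluster, a change in which cells it holds and a change per cell cannot be told apart.

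The cluster held few cells in some libraries, namely 24, 51 and 98 in KO, against 40, 31 and 144 in WT, on the 3 days. After thinning each cell to 2000 UMIs, which left out 1 cell of 388, Mpo was detected in 41.7%, 35.3% and 27.6% of KO cells, against 23.1%, 22.6% and 22.2% of WT cells. Without thinning the shares were 45.8%, 47.1% and 43.9% in KO, against 37.5%, 32.3% and 32.6% in WT. In lymphocyte-like cells, which should lack the gene, 0.512% of cells had Mpo after thinning and 0.825% without it, at a median of 2798 UMIs per cell.

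Camp and Ngp went in opposite directions on different days in Mpo-led cells. Camp was measured at 17.7, 166 and 133 CPM in KO, against 51.3, 60.2 and 431 CPM in WT. Ngp was measured at 27.7, 272 and 261 CPM in KO, against 87.0, 127 and 472 CPM in WT. Both were thus lower in KO on days 0 and 21 and higher on day 13, and neither passed the test over all 6 libraries. Their log2 fold changes were -0.65 ± 0.35 for Camp and -0.26 ± 0.27 for Ngp (adjusted p = 0.642 and 0.854 in edgeR). Without the KO library of day 13 both were called lower, Camp at -1.67 (adjusted p = 8.0e-04) and Ngp at -1.01 (adjusted p = 0.0236) in edgeR, and without a filter on low counts Camp was called lower (adjusted p = 0.0269). Ltf had -0.12 ± 0.28 and Mmp8 -0.41 ± 0.19 (adjusted p = 0.945 and 0.542 in edgeR), and Mmp9 was too low to be tested.

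The list of 29 other granule proteins also took in stefin A genes, of a family of protease inhibitors. Of this list, 16 of 29 could be tested in Mpo-led cells, 0 were higher and 1 was lower. Chil3, a chitinase-like protein of developing neutrophils, had a log2 fold change of -1.37 ± 0.13 (adjusted p = 1.8e-06 in edgeR). The median log2 fold change was -0.23 over these 16 genes, beside -0.01 over all genes tested. Ms4a3, a gene of granulocyte-monocyte progenitors, had 0.40 ± 0.12 and was not called (adjusted p = 0.188 in edgeR). Of 7 inhibitors and carriers tested, 0 were higher and 1, Wfdc21, was lower at -0.86 ± 0.20 (adjusted p = 0.0498 in edgeR). Serglycin (Srgn), the proteoglycan that packs granule proteins, had 0.39 ± 0.11 and was not called (adjusted p = 0.107 in edgeR). Of 7 transcription factors of granule synthesis and 8 membrane and secretory vesicle proteins tested, 0 were called in either direction.

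**Figure D2:**
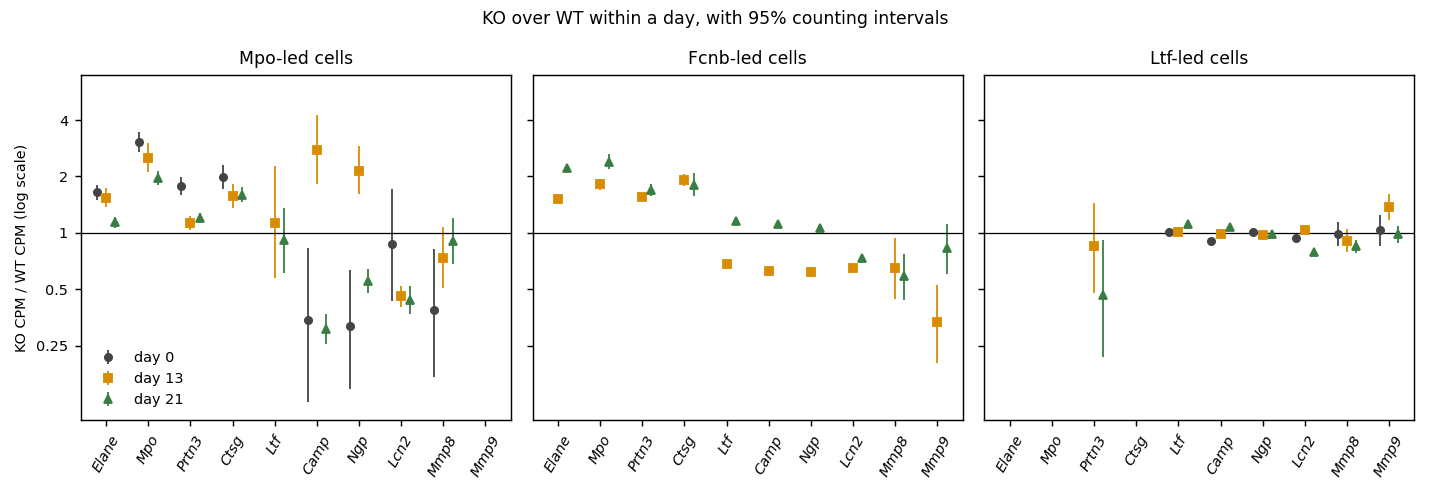
KO over WT ratio of CPM (log scale) for each granule gene in 3 clusters, by day, with 95% intervals for counting error only. Points need 20 or more cells and 5 or more UMIs in both libraries and 10 CPM in either, and the primary genes lie above 1 in Mpo-led and Fcnb-led cells while secondary genes lie near 1 in Ltf-led cells.

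In Fcnb-led cells the primary genes were also higher in KO on both days with enough cells. Day 0 had 3 KO and 18 WT cells and was left out. Mpo was measured at 1458 and 1186 CPM in KO on days 13 and 21, against 802 and 493 CPM in WT. Elane was measured at 4321 and 4931 CPM in KO, against 2835 and 2209 CPM in WT. Both KO values lay above both WT values for each of these genes. Prtn3 was measured at 2765 and 1810 CPM in KO, against 1784 and 1069 CPM in WT. Ctsg was measured at 1512 and 487 CPM in KO, against 789 and 269 CPM in WT. For Ctsg the days lay further apart than the genotypes.

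All 4 primary genes were higher in KO by 1.5-fold or more on each of the 2 days, where 16.3% of all genes at 10 CPM or more were so on day 13 and 10.2% on day 21. The KO over WT ratios were 1.52 for Elane, 1.82 for Mpo, 1.55 for Prtn3 and 1.92 for Ctsg on day 13. On day 21 they were 2.23, 2.40, 1.69 and 1.81 in the same order. On day 13, 5 of the other 6 members were 1.5-fold or more lower in KO, against 5.86% of all genes, with Ltf at a ratio of 0.682 just under that size. On day 21 that held for 1 of 6, against 14.9% of all genes, and Ltf, Camp and Ngp had ratios of 1.16, 1.12 and 1.06. The genotype pattern of the secondary genes thus differed between the days, and this difference was not tested.

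With 2 days as replicates, none of these differences passed a test. The edgeR quasi-likelihood test, added after the values were seen, called 0 of 7169 genes (0.0%) in Fcnb-led cells, with 216 at an unadjusted p under 0.05, and DESeq2 called 0 as well. The log2 fold changes were 1.03 ± 0.26 for Mpo, 0.85 ± 0.32 for Elane, 0.86 ± 0.23 for Ctsg and 0.67 ± 0.27 for Prtn3, with an adjusted p of 0.9998 each in edgeR. Those of Mmp8 and Mmp9 were -0.72 ± 0.21 and -0.85 ± 0.35 (adjusted p = 0.9998 in edgeR). In the same cells the immature neutrophil markers summed to 19475 and 17570 CPM in KO, against 26998 and 21301 CPM in WT. The progenitor markers summed to 1925 and 1227 CPM in KO, against 1473 and 1050 CPM in WT. Their part in the result was not tested.

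**Figure D3:**
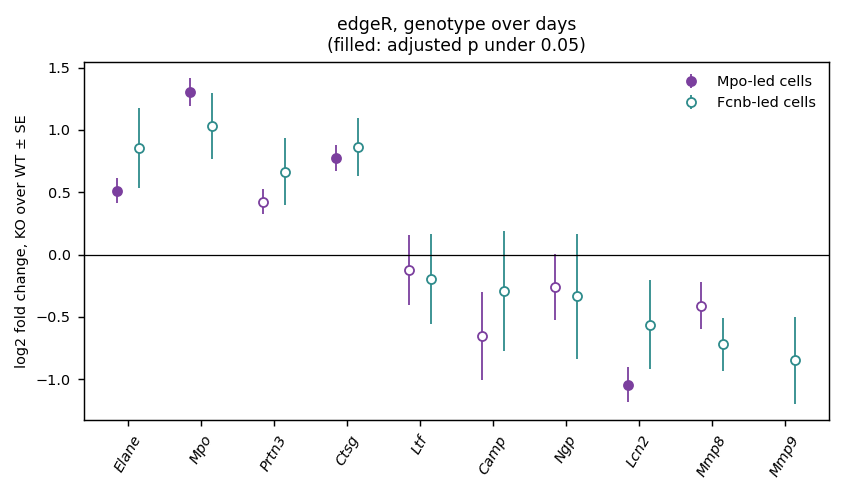
The log2 fold change of KO over WT (± SE) from edgeR for the granule genes in Mpo-led cells (6 libraries) and Fcnb-led cells (4 libraries), filled where the adjusted p was under 0.05. The filled points are Mpo, Ctsg, Elane and Lcn2 in Mpo-led cells, and no point is filled in Fcnb-led cells.

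Detection per cell gave the same direction in Fcnb-led cells after thinning to 2000 UMIs, which left out 0 of the 544 cells. Mpo was detected in 37.2% and 20.3% of KO cells on days 13 and 21, against 21.7% and 13.0% of WT cells. Elane was detected in 50% and 34.8% of KO cells, against 39.9% and 26.5% of WT cells. Without thinning the shares for Mpo were 55.8% and 30.4% in KO, against 34.8% and 17.4% in WT, and those for Elane 72.1% and 46.4% in KO, against 50.7% and 34.8% in WT.

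In the immature class as a whole, which joins Fcnb-led and Ltf-led cells, 0 of the 10 members were called. The edgeR quasi-likelihood test over 6 libraries called 1 of 7094 genes (0.0141%), with 174 at an unadjusted p under 0.05, and DESeq2 called 0. The log2 fold changes of the primary genes were 0.76 ± 0.21 for Mpo, 0.66 ± 0.18 for Prtn3, 0.57 ± 0.22 for Elane and 0.51 ± 0.27 for Ctsg (adjusted p = 0.9999 in edgeR). Without the KO library of day 13, Mpo and Prtn3 were called (adjusted p = 0.0212 and 0.0427 in edgeR), and without the WT library of that day Mpo was called (0.0256). Without the Fcnb-led cells the value of Prtn3 turned to -0.48. Of the members, 1, 4 and 3 were higher in KO by 1.5-fold or more on days 0, 13 and 21, all of them primary, where 21.1%, 15.8% and 3.84% of all genes were. Lower by that size were Ctsg on day 0 and Mmp8 on day 13, against 26.6%, 3.93% and 15.6% of all genes on the 3 days. Fcnb-led cells made up 3 of 34, 86 of 146 and 69 of 250 immature cells in KO, against 18 of 142, 138 of 269 and 230 of 681 in WT.

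Ltf-led cells showed little difference between genotypes. Camp was measured at 55560, 34880 and 49247 CPM in KO, against 61331, 35151 and 46076 CPM in WT. Lcn2 was measured at 14541, 25296 and 16410.5 CPM in KO, against 15439, 24271.5 and 20786 CPM in WT. Camp was lowest and Lcn2 highest on day 13 in both genotypes, and on day 21 the WT level of Lcn2 lay nearer to day 13 than to day 0. The KO over WT ratios of all secondary and tertiary genes ran from 0.790 to 1.37 in these cells, so none of them was 1.5-fold apart. Primary genes had 53 or fewer UMIs per library in this cluster. Of these, Elane was higher in KO on day 13, with 9 UMIs in KO and 4 in WT, and Prtn3 was lower on day 21, with 11 and 44. By that size, 25.8%, 13.3% and 5.97% of all genes were higher in KO on the 3 days, and 23.2%, 19.6% and 23.6% were lower.

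In mature neutrophil-like cells the secondary and tertiary genes were also under 1.5-fold apart between genotypes on each day, with ratios of 0.704 to 1.46. Mmp8 was measured at 2837, 2349 and 2798 CPM in KO, against 3183, 3158 and 3226 CPM in WT. All 3 KO values of Mmp8 lay below all 3 WT values, by ratios of 0.891, 0.744 and 0.868. Mmp9 was measured at 1593, 849 and 1269 CPM in KO, against 1787, 859 and 1181 CPM in WT, and the groups overlapped. In the Retnlg-led cluster alone, Camp was 1.81-fold higher in KO on day 13, and Ngp was lower on day 21 at a ratio of 0.657, with Lcn2 at 0.669 just under that size. Elane was also 1.5-fold or more lower on day 0, with 1 UMI in KO and 3 in WT, and Prtn3 on day 21, with 12 and 17. In that cluster 27.8%, 13.2% and 8.31% of all genes were higher in KO by 1.5-fold or more on the 3 days, and 27.0%, 20.8% and 21.7% were lower. The primary genes that were 1.5-fold or more apart in the class were Elane on day 21, with 12 UMIs in KO and 5 in WT, and Prtn3, with 25 UMIs in KO against 50 in WT for day 13 and 15 against 21 for day 21. Of all genes, 33.1%, 13.3% and 7.58% were higher in KO by that size on the 3 days, and 20.2%, 13.0% and 20.3% were lower.

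The edgeR quasi-likelihood test over days called 0 of 7 members tested in mature cells, and 0 of 5620 genes (0.0%). There were 145 genes at an unadjusted p under 0.05, and DESeq2 called 0 with 23 at that p. On the list of other granule proteins, 2 stefin A genes, of a family of protease inhibitors, were 1.5-fold or more apart the same way on days 13 and 21. Of all genes, 13.0% and 20.3% were lower in KO by that size on these days, and the share lower on both was not counted. Over days, edgeR called 0 of the 23 genes of this list that were tested. Stfa2 was measured at 274 and 5.03 CPM in KO mature cells on days 13 and 21, against 625 and 80.3 CPM in WT, and Stfa3 at 198 and 18.4 CPM in KO, against 484 and 55.0 CPM in WT.

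Between days, mature neutrophil-like cells had less Camp, Mmp9 and Ltf and more Prtn3 on day 13 than on day 0. Camp was measured at 6516 CPM in KO and 4465 CPM in WT on day 13, against 15187 CPM in KO and 17952 CPM in WT on day 0. Mmp9 was measured at 849 CPM in KO and 859 CPM in WT on day 13, against 1593 CPM in KO and 1787 CPM in WT on day 0. For both genes the day 13 values lay below the day 0 values in either genotype, without overlap. Ltf was measured at 4186 CPM in KO and 3483 CPM in WT on day 13, against 5995 CPM in KO and 5068 CPM in WT on day 0. Prtn3 had 25 KO and 50 WT UMIs on day 13, against 0 KO UMIs and 1 WT UMI on day 0. For Prtn3 the day 0 counts are at or under the floor of 3 counts per library, so its fitted size depends on a prior count.

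In the edgeR quasi-likelihood test with genotype as covariate, 3 of the 7 members tested were called lower, against 5.23% of 5620 genes, and 1 higher, against 7.26%. The log2 fold changes of day 13 over day 0 were -1.93 ± 0.24 for Camp (adjusted p = 3.4e-04 in edgeR), -1.30 ± 0.20 for Mmp9 (0.0014) and -0.84 ± 0.19 for Ltf (0.0118). Prtn3 was called higher with an adjusted p of 0.0084 in edgeR. Ngp had -0.55 ± 0.21, Mmp8 -0.45 ± 0.19 and Lcn2 0.26 ± 0.20, and these were not called (adjusted p = 0.112, 0.1501 and 0.463 in edgeR). On the list of other granule proteins, 5 of 23 tested were higher on day 13 and 4 were lower, with a median of -0.08. One of the higher was Chil3, at 2.22 ± 0.34 (adjusted p = 0.0014 in edgeR). Of 8 inhibitors and carriers tested, 2 were higher, among them Srgn, and 2 were lower, among them Wfdc21. None of the 7 members was called when clusters were cut finer, at resolution 2, where Camp had -0.71 (adjusted p = 0.391 in edgeR) and Ltf 0.21. Without the WT library of day 0, Camp was the 1 member still called, and Ltf was called in 6 of 13 alternatives. Cxcl2-led cells made up 53 of 166 KO and 55 of 261 WT mature cells on day 13. On day 0 they made up 2 of 48 KO and 7 of 111 WT mature cells. Summed over all libraries, Camp and Mmp9 were lower in them than in Retnlg-led cells. For Camp this did not hold in each library. On day 0 Camp was at 32340 CPM in WT and 17218 CPM in KO Cxcl2-led cells, above the 17952 and 15187 CPM of the whole mature class. Without Cxcl2-led cells, Camp and Mmp9 were still called lower and Prtn3 higher. Ltf was then not called (-0.33, adjusted p = 0.243 in edgeR), and Lcn2 was called higher (0.71, adjusted p = 0.0244). Without either library of day 21, Ngp and Mmp8 were called lower too, at -0.55 to -0.59 for Ngp and -0.45 to -0.49 for Mmp8 in edgeR.

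On day 21 against day 0 the edgeR quasi-likelihood test called 0 of the 7 members in mature cells, where 60 of 5620 genes (1.07%) were called, 0.943% higher and 0.125% lower. There were 664 genes at an unadjusted p under 0.05, and DESeq2 called 72 genes, 0 of them members. The lowest adjusted p of a member was 0.197 in edgeR, for Prtn3. Leaving out the KO library of day 21 gave calls for 3 members, Lcn2, Camp and Mmp9, and leaving out the WT library of that day gave a call for Camp.

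Granule transcripts were also counted in lymphocyte-like cells (5457 T-, B- and NK-like cells), where they serve as a measure of free RNA and of mixed droplets. Camp was measured at 101, 40.2 and 302 CPM in KO lymphocyte-like cells of days 0, 13 and 21, against 92.3, 117 and 181 CPM in WT. Ngp was measured at 104, 93.3 and 363 CPM in KO, against 86.4, 269 and 228 CPM in WT. The KO library of day 21 was highest for both genes and for Ltf and Lcn2. Primary genes were measured at 9.74 CPM or less in each library. These Camp levels were 0.202% to 0.962% of those in the neutrophil-like cells of the same library.

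A handful of cells carried much of this signal. Cells with 20 or more secondary UMIs numbered 1, 1 and 4 in KO, against 1, 1 and 9 in WT, on the 3 days. They gave 63.5%, 23.0% and 66.3% of the secondary UMIs of lymphocyte-like cells in KO, against 11.6%, 36.1% and 39.1% in WT. Without them Camp was 47.2, 39.3 and 107 CPM in KO, against 86.7, 94.5 and 117 CPM in WT. The KO over WT ratios of Ltf, Camp, Ngp and Lcn2 on day 21 were 2.09, 1.67, 1.60 and 1.32 with those cells, and 1.17, 0.914, 0.978 and 0.632 without them. Higher by 1.5-fold or more in KO were 7.81%, 2.69% and 7.72% of all genes on the 3 days, and 11.8%, 6.23% and 4.77% were lower. On day 13 the ratios were 0.2498 to 0.451 with the cells and 0.416 to 0.469 without them. The lower KO level on day 13 was thus present without these cells, and of the higher KO levels on day 21 that of Ltf alone stayed above 1.

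**Figure D4:**
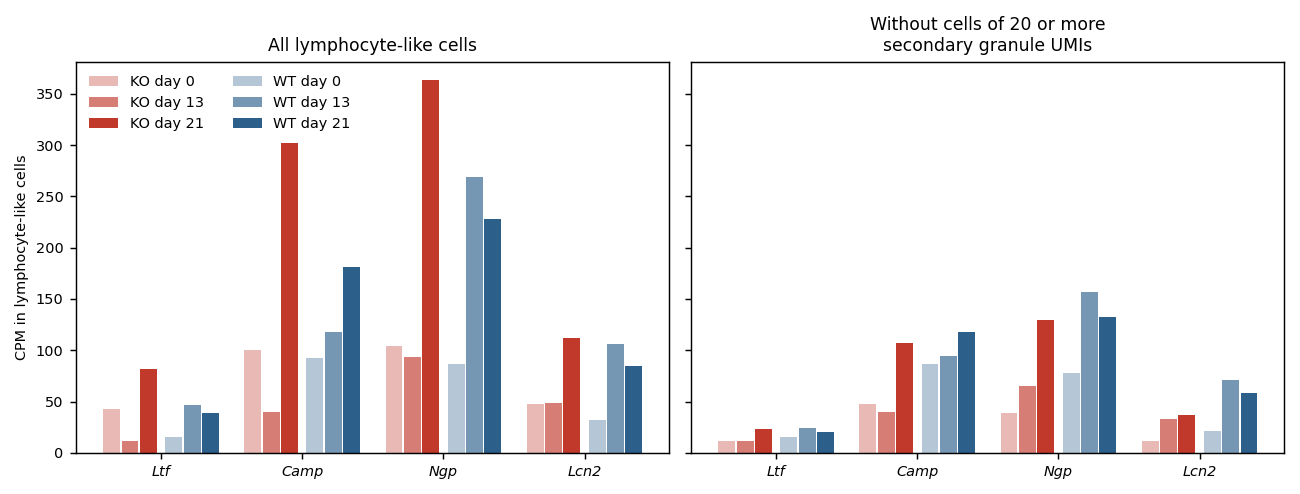
CPM of the 4 secondary granule genes in lymphocyte-like cells of each library, with all cells and without the 17 cells of 20 or more secondary UMIs, KO in red left of WT in blue. The KO day 21 bars are the tallest with all cells and fall to the WT level or below it for Camp, Ngp and Lcn2 without those cells.

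Over days, 0 of 8 members tested were called in lymphocyte-like cells, where the edgeR quasi-likelihood test called 8 of 10456 genes (0.0765%), 0.0383% higher and 0.0383% lower. There were 777 genes at an unadjusted p under 0.05, and DESeq2 called 32 genes, 0 of them members. The lowest adjusted p of a member was 0.649 in edgeR, for Mmp8. Camp was called lower with cells classed by their own marker scores, and Lcn2 at resolution 2. Camp was detected in 12.02%, 7.79% and 21.0% of KO lymphocyte-like cells after thinning, against 17.0%, 16.6% and 21.1% of WT cells. Thinning left 4491 of 5457 cells, and without it the shares were 15.4%, 13.4% and 31.2% in KO, against 26.3%, 30.8% and 31.4% in WT.

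Some members were also measured in myeloid cells that are not neutrophil-like, above the lymphocyte level. Ctsg was at 2438 CPM and Mpo at 710 CPM in the 104 basophil/mast-like cells, against 1.80 and 2.47 CPM in lymphocyte-like cells. Elane and Prtn3 were at 18.0 and 58.6 CPM in the same basophil/mast-like cells. Prtn3 was at 120 CPM and Mmp8 at 204 CPM in monocyte/macrophage-like cells, against 4.56 and 13.1 CPM in lymphocyte-like cells. Camp was at 118 CPM in monocyte/macrophage-like cells and 149 CPM in lymphocyte-like cells, so it stood no higher there.

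Summed over all cells of a library, the KO over WT ratios of Mpo and Ctsg were above 1 and those of the secondary genes below 1 on each day. Mpo had ratios of 1.93, 1.74 and 1.94 on days 0, 13 and 21, and Ctsg of 1.96, 1.72 and 1.29. Elane had 1.01, 1.33 and 1.34, and Prtn3 1.42, 1.34 and 1.23. Camp had KO over WT ratios of 0.367, 0.552 and 0.821, and Ltf of 0.440, 0.598 and 0.972. These sums follow the number of cells of each cluster as well as the level in them.

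Across 68 sums of a library and a cell class, the gene most like the summed primary genes was Ms4a3 (Pearson r = 0.88). Lrr1, Ankle1, Hsd17b1 and Plppr3 followed. Ms4a3 was among the progenitor markers of the rule that set the Mpo-led cluster apart. Plppr3 overlaps the Prtn3 locus, and the part of shared reads in its likeness was not tested. For the secondary genes it was S100a9 (r = 0.99), a calcium-binding protein of neutrophil cytosol, followed by S100a8, Itgb2l, 4930438A08Rik and Ankrd22. For the tertiary genes it was Retnlg (r = 0.94), followed by Scrg1, Mrgpra2a, Ly6g and S100a8. Among the members, Camp and Ngp were most alike (r = 0.98), and Prtn3 and Ctsg least alike within a group (r = 0.72). Points of a library share its depth and its free RNA, and these values describe the data only.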

How the data were processed

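Whole-number UMI counts per gene and barcode were used as deposited by the authors, made with Cell Ranger 2.0.2 on mm10 per the submitters' processing notes. Its counting settings, and whether doublets were removed, were not given in the sources used here. Cells with at most 10% mitochondrial counts and 200 or more genes were kept, and these filters removed 23 barcodes for mitochondrial counts and 0 for genes. The doublet caller scrublet called 16 of 20030 barcodes, which were left out. So low a number was taken as a caller that has not worked, and mixed droplets may remain.

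Clustering used scanpy 1.11.5 with 2000 variable genes, 30 components, 15 neighbours and Leiden resolution 1.0, with the 10 members left out of the variable genes. A cluster was named where 3 or more markers of a type, and 40% of its list, were raised 2-fold or more and no other type had more markers among the 10 leading genes. The Mpo-led cluster was set apart by a rule on these markers and is called by its leading gene. It was the only cluster, unnamed or named progenitor, with 40% or more of progenitor markers raised and under 40% of basophil/mast markers. The members, gene lists and markers were chosen with earlier results of these data known.

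Sums over the cells of a class in 1 library were given as CPM of that class. Ratios have exact conditional 95% intervals, which cover counting error only. A difference within a day was called at 1.5-fold with 10 CPM in either library and 20 cells in both. Tests used edgeR 4.0.16 (glmQLFit, glmQLFTest, TMM, filterByExpr) in R 4.3.3, two-sided, with Benjamini-Hochberg adjustment over all genes at 0.05, and DESeq2 1.42.0 as an alternative. With 1 library in each group, p-values rest on the spread between libraries of other days or genotypes. In edgeR the spread of each gene was moderated towards the trend over all genes. An edgeR p or SE thus does not measure the spread of the gene's own values over days alone. The SE given with an edgeR log2 fold change was derived, as its absolute value over the square root of the test's F statistic. The tests in Mpo-led and Fcnb-led cells, and the alternatives that leave out a cluster or the lymphocyte-like cells of 20 or more secondary UMIs, were added after values were seen. On simulated counts at a 4-fold change 90, 87 and 91 of 100 genes were recovered in mature, immature and lymphocyte-like sums, and at 2-fold 32, 22 and 32. These counts had the same spread for all genes (dispersion 0.05) and no day effect, so recovery in the real tests may differ. Mpo-led and Fcnb-led sums were not simulated.

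The 10 members are always named. Genes of the lists were named at 50 CPM or more and 1.5-fold or more apart the same way on days 13 and 21 in mature cells. Chil3, Wfdc21, Ms4a3 and Srgn were named after their values were seen. Like genes are the 5 with the highest Pearson correlation of log2(CPM + 1) over sums of 20 or more cells.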

Additional observations from a re-analysis of the deposited data

Results flagged for a closer look

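Several ratios of KO over WT pointed one way on some days and the other way on others. With 1 library per genotype and day, the difference between days was not tested for any of them. In Mpo-led cells the ratio of Camp was 2.76 on day 13, against 0.344 on day 0 and 0.308 on day 21. Ngp in the same cells had 2.15 on day 13, against 0.319 on day 0 and 0.553 on day 21. Of the levels behind these ratios, only those of KO on day 13 and WT on day 21 stood well above the lymphocyte-like levels. In immature neutrophil-like cells the ratio of Ctsg was 2.17 on day 13 and 1.51 on day 21, against 0.477 on day 0, where KO had 14 UMIs and WT 113.

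In lymphocyte-like cells the ratio of Ltf was 2.88 on day 0 and 2.09 on day 21, against 0.2498 on day 13. Camp had 1.67 on day 21, against 0.343 on day 13, and Ngp had 1.60, against 0.347. Without the cells of 20 or more secondary UMIs, the day 0 and day 21 ratios of Ltf were 0.789 and 1.17.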

How the results depend on the processing

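No paired analysis was possible because the replicate numbers give no pairs, each group holding 1 library numbered 1. The day, which a KO and a WT library share, was a factor in every genotype test. Leaving out a library removes its day's pair from a genotype test, and the fit in Fcnb-led cells could not be made so, having no residual degrees of freedom. In mature cells the count of genes called by genotype was 0, and 12 without a filter on low counts, 3 with cells classed by their own marker scores, 1 without Cxcl2-led cells and 10 to 49 without a library. In immature cells it was 1, and 0 with DESeq2, with own marker scores, with the members among the variable genes and at resolution 2, 17 without a filter, 8 without Fcnb-led cells and 3 to 71 without a library. In lymphocyte-like cells it was 8, and 32 with DESeq2, 4 with RLE size factors, 307 without a filter, 16 with own marker scores, 44 with members among the variable genes, 2 without Bcl11b-led T-like cells, 4 without cells of 20 or more secondary UMIs and 5 to 334 without a library. In Mpo-led cells it was 44, and 12 with DESeq2, 100 without a filter, 1 with own marker scores and 1 to 61 without a library. In Fcnb-led cells it was 0, and 8 without a filter. For day 13 against day 0 it was 702, and 357 with DESeq2, 441 with own marker scores, 325 with members among the variable genes, 139 at resolution 2 and 280 to 1099 without a library. For day 21 against day 0 it was 60, and 211 without a filter, 29 with own marker scores, 6 at resolution 2, 24 without Cxcl2-led cells and 30 to 386 without a library. The cause was not tested in any of these.

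Some log2 fold changes turned sign. Prtn3 in immature cells was -0.48 without Fcnb-led cells. For day 13 against day 0 in mature cells, Ltf was 0.21 and Ngp 0.38 at resolution 2, Ngp was 0.15 with members among the variable genes, and Lcn2 was -0.82 with own marker scores. In Mpo-led cells with own marker scores Ltf was 0.32 and Mmp8 0.11. Without the KO and WT library of day 21, Camp was 0.72 and 0.73 there, and Ngp 0.43 and 0.42. Without a library Camp ran from -1.67 to 0.73 and Ngp from -1.01 to 0.43. The cause was not tested. Mpo, Ctsg, Elane and Prtn3 kept a positive value and Lcn2 a negative one in Mpo-led cells in 12 of 12 alternatives, and passed the threshold in 10, 9, 6, 5 and 10 of them.

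The members 1.5-fold or more apart between genotypes within a day in mature cells numbered 3, and 12 with own marker scores and 5 with members among the variable genes. The count of 48 pairs with a higher level in immature cells stayed within 1.5 times under the 5 alternatives run. Depth limits the primary genes outside Mpo-led and Fcnb-led cells. There, 53 or fewer UMIs per library were counted in Ltf-led and 37 or fewer in Retnlg-led cells.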
